A study of Mus musculus with 12 samples.

Results

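MHC class II genes encode the proteins that display peptides to CD4+ T cells and the machinery that prepares those proteins for display. The group consists of 8 genes chosen by name: H2-Aa, H2-Ab1, H2-Eb1, H2-DMa, H2-DMb1, Cd74, Ciita and Ctss. A probe set counted as a member when the platform annotation gave it 1 of these symbols and no other gene, and 7 of the 8 genes met this rule, with 1 probe set each, among 22180 genes measured in all. The probe set that lists Cd74 also lists a second gene, so Cd74 (the invariant chain) was not analysed here.

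Liver RNA came from male C57BL6/J mice, 8 to 10 weeks old, that had received an Ad5 adenovirus by tail vein 4 days before death and had been fasted for 6 h. The virus carried human ApoF, a lipoprotein-bound secreted protein, in 6 samples (hApoF, replicates 7 to 12) and green fluorescent protein in 6 control samples (GFP, replicates 1 to 6). Each sample was hybridised to 1 array. Both groups thus share the viral vector, uninjected livers were not analysed here, and the labels give neither the promoter of the transgene nor the viral dose. Nothing in the labels ties the arrays to separate animals, and the p-values below therefore speak only of the variation among these 12 samples.

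In antigen-presenting cells an alpha and a beta chain pair in the endoplasmic reticulum and bind the invariant chain there. In endosomes the protease cathepsin S trims the invariant chain, and the DM heterodimer exchanges the remaining fragment for a peptide. Transcription of most of these genes depends on the coactivator CIITA, which is recruited to an X box and a Y box in their promoters by the RFX and NF-Y complexes. In liver the pathway is known mainly from Kupffer cells, dendritic cells, B cells and sinusoidal endothelium, while hepatocytes have little of it at rest.

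Promoter windows, from 250 bases before to 50 bases after the start site, were at hand for 5 of the members (RefSeq, GRCm38.p6): H2-Aa, H2-Eb1, H2-DMa, H2-DMb1 and Ctss. They were searched on both strands for AGNNAC, a part of the X box, followed on the same strand by the Y box core ATTGG with 20 to 40 bases between. This layout occurred in the windows of H2-Eb1 and H2-DMb1, that is in 2 of the 5 members and in 3.76% of 32851 windows of all genes. The 5 members have 6 windows, and shares over all genes were computed per window and not per gene. With GNAAC in place of AGNNAC, a wording chosen after the sequences were seen and overlapping the first one, H2-Aa held it too, which made 3 of 5 members against 3.41% of all windows. The stretches of these 3 genes are printed because they carry the regulatory layout that a gene that rose (H2-Aa) has in common with 2 genes that did not pass the test. Capitals mark GNAAC and ATTGG.
H2-Aa: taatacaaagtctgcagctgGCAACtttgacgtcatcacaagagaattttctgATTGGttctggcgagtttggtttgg
H2-Eb1: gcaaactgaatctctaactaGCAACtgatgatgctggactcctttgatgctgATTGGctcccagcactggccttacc
H2-DMb1: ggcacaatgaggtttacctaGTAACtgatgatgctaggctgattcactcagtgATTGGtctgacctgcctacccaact
The H2-Aa stretch lies on the minus strand of chr17:34287847-34287924, the H2-Eb1 stretch on the plus strand of chr17:34305756-34305832 and the H2-DMb1 stretch on the plus strand of chr17:34153077-34153154. The gap between the capitals is 28 bases in H2-Aa, 27 in H2-Eb1 and 28 in H2-DMb1, and ATTGG begins 48, 59 and 61 bases before the start site. A match describes letters and is not a measured binding site.

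The comparison asks whether liver transcripts of the class II pathway differ when human ApoF is overexpressed. The genes for both chains of the I-A molecule, H2-Aa and H2-Ab1, rose in hApoF livers by 1.48-fold and 1.43-fold, and the other 5 measured members did not pass the test. The fit was limma over all 22180 genes with Benjamini-Hochberg adjustment and a threshold of 0.05. With 2 of 7 members higher and 0 lower, the members stand beside a background of 2.11% of all genes called higher, 4.8% called lower and 6.91% called in either direction. An unadjusted p under 0.05 was found for 4 of the 7, all of them higher, and for 4716 of the 22180 genes in either direction. That share is also the background for the counts at an unadjusted p given for the lists below. The median log2 change was 0.24 over the members and 0.03 over all genes.

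**Figure D1:**
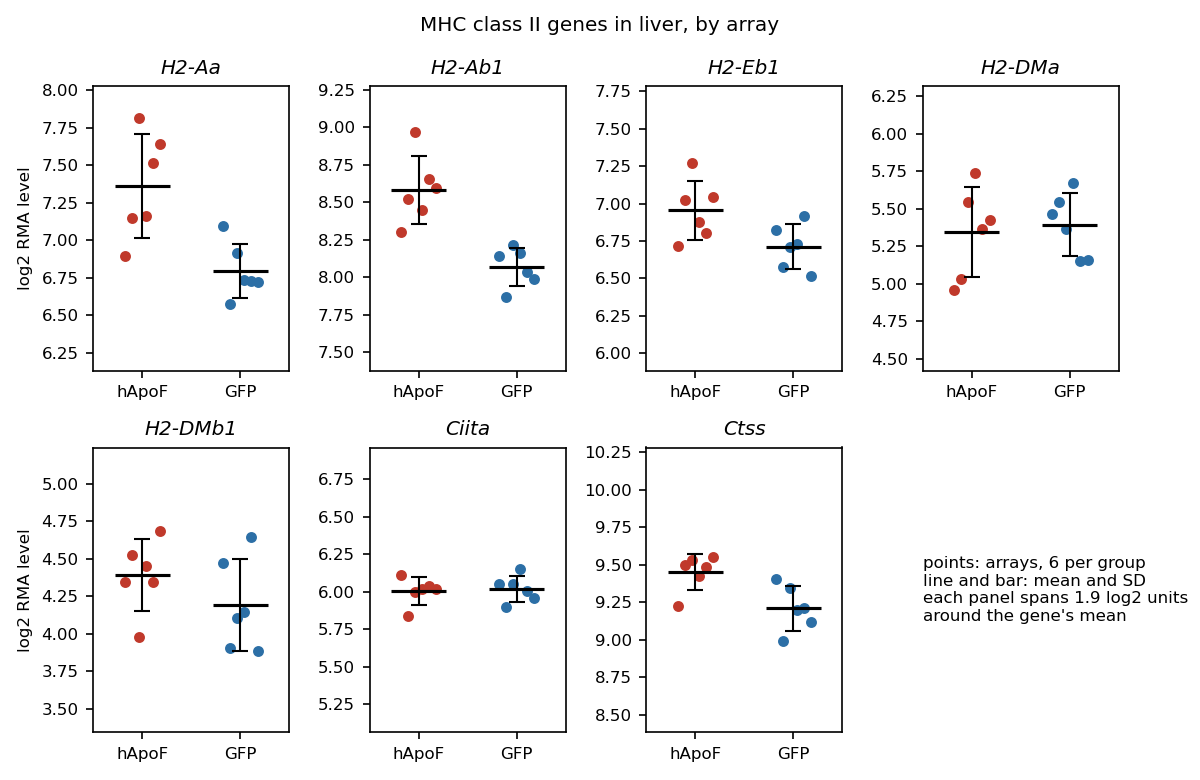
Log2 RMA level of each measured member by array, with hApoF arrays left and GFP arrays right of each panel. Points are arrays (6 per group), and the line and bar are the mean and SD. Every hApoF array lies above every GFP array for H2-Ab1, while the groups overlap for each of the other members.

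H2-Ab1 encodes the beta chain of I-A, the class II molecule that C57BL/6 mice display. On the log2 scale its level had a lowest value of 8.30, a median of 8.56 and a highest value of 8.97 in hApoF livers, against 7.87, 8.09 and 8.22 in GFP livers. The groups did not overlap, and the highest array was hApoF 9. Among all genes 4.98% showed no overlap between groups in either direction and 1.49% with hApoF higher, and H2-Ab1 was the 1 member of 7 to do so. The means were 8.58 ± 0.23 in hApoF livers and 8.07 ± 0.13 in GFP livers (SD, n = 6 each). The log2 change was 0.51 (SE 0.10), a 1.43-fold rise with a 95% interval of 1.23 to 1.66 (limma adjusted p = 0.00583). The exact two-sided permutation test over the 924 assignments of arrays to groups gave p = 0.00216, the smallest it can give. The gene lies at chr17:34263227-34269418 (GRCm38.p6).

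H2-Aa encodes the alpha chain that pairs with the product of H2-Ab1, from chr17:34282744-34287823. Its log2 level ran from 6.89 over a median of 7.34 to 7.81 in hApoF livers, against 6.57 over 6.73 to 7.09 in GFP livers. Of the 6 hApoF arrays 5 lay above every GFP array. The exception, hApoF 7, was the lowest hApoF array for H2-Ab1 and Ctss as well, and hApoF 9 was again the highest. The means were 7.36 ± 0.35 in hApoF livers and 6.80 ± 0.18 in GFP livers (SD, n = 6 each), a log2 change of 0.57 (SE 0.14). Limma gave an adjusted p of 0.0246 and the exact permutation test p = 0.00649. The 95% interval of the 1.48-fold rise was 1.20 to 1.82. Omitting single arrays ended this call in 4 of 12 fits, with limma adjusted p = 0.0626 without GFP 2, 0.0561 without GFP 6, 0.0540 without hApoF 12 and 0.0505 without hApoF 11. It was also lost without GFP 4 and hApoF 12 together (limma adjusted p = 0.0684), so that 1 member was then called. H2-Ab1 passed in each of these fits.

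H2-Eb1 encodes the beta chain of a further class II molecule, I-E, at chr17:34305867-34316674. C57BL/6 mice carry a haplotype that makes no I-E alpha chain, so this beta chain has no regular partner in them. Its log2 level ran from 6.72 over a median of 6.95 to 7.27 in hApoF livers, against 6.52 over 6.72 to 6.92 in GFP livers, and 3 of 6 hApoF arrays lay above every GFP array. The log2 difference was 0.24 (SE 0.10), which did not pass, with an exact permutation p of 0.0411 and a limma adjusted p of 0.164. Its 95% interval, as a fold, was 1.02 to 1.37.

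Ctss encodes cathepsin S, the endosomal protease that trims the invariant chain, at chr3:95526786-95556405. The log2 level had a lowest value of 9.23, a median of 9.49 and a highest value of 9.55 in hApoF livers, and 8.99, 9.20 and 9.41 in GFP livers. Again 5 of 6 hApoF arrays were above every GFP array and hApoF 7 was not. The log2 difference of 0.24 (SE 0.08) did not pass over all genes (exact permutation p = 0.0130, limma adjusted p = 0.0950). It passed with trend and robust settings (limma adjusted p = 0.0489) and when the dimmer genes were left out (limma adjusted p = 0.0426).

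The peptide-exchange factor DM is a dimer of the H2-DMa and H2-DMb1 products, and neither gene passed. H2-DMa (chr17:34119693-34139101) ran on the log2 scale from 4.96 over a median of 5.40 to 5.74 in hApoF livers, against 5.15 over 5.42 to 5.67 in GFP livers, a difference of -0.05 (95% interval -0.33 to 0.23, limma adjusted p = 0.868). H2-DMb1 (chr17:34153191-34160229) ran from 3.98 over 4.40 to 4.69 in hApoF livers, against 3.88 over 4.13 to 4.65 in GFP livers, a difference of 0.20 (95% interval -0.10 to 0.49, limma adjusted p = 0.458). The groups overlapped almost entirely for both genes. H2-DMb1 lay below the array median on all 12 arrays, and it has a close paralog in H2-DMb2, so its values are uncertain.

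Ciita, the coactivator on which class II transcription depends, did not pass. Its log2 level ran from 5.84 over a median of 6.02 to 6.12 in hApoF livers, against 5.90 over 6.03 to 6.15 in GFP livers, and 2 of 6 hApoF arrays were above the GFP median. The difference was -0.01 with a 95% interval of -0.16 to 0.13 (limma adjusted p = 0.931, exact permutation p 0.790), and its sign changed in some alternative fits. As a fold, the interval was 0.896 to 1.09. The gene is at chr16:10480014-10531064, and its 1 probe set does not separate the transcripts that start at its different promoters.

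Whether members changed unequally was tested on the log2 difference of 2 members within each array, by exact two-sided permutation with Benjamini-Hochberg adjustment over the 21 pairs. The changes of H2-Aa and H2-Ab1 differed by 0.05 (SE 0.09, adjusted p = 0.668). H2-Ab1 rose more than Ciita by 0.53 (SE 0.11, adjusted p = 0.0227), more than Ctss by 0.27 (SE 0.07, adjusted p = 0.0227), more than H2-Eb1 by 0.27 (SE 0.08, adjusted p = 0.0273) and more than H2-DMa by 0.56 (SE 0.15, adjusted p = 0.0303). H2-Aa rose more than Ciita by 0.58 (adjusted p = 0.0273), Ctss by 0.32 (adjusted p = 0.0273) and H2-DMa by 0.62 (adjusted p = 0.0325). These were the 7 pairs that passed, and each contrasts an I-A chain gene with a gene that is no I-A chain. Contrasts of this kind also failed to pass, for H2-Aa with H2-Eb1 (adjusted p = 0.0808) and with H2-DMb1 (adjusted p = 0.213). The same held for H2-Ab1 with H2-DMb1 (adjusted p = 0.247). Of these 7 pairs 3 passed when hApoF 11, GFP 2 or GFP 4 was omitted and 4 when hApoF 9 or hApoF 12 was. With GFP 4 and hApoF 12 both omitted their differences were 0.28 to 0.54, against 0.27 to 0.62 over all arrays. No pair passed there, where the exact test with 5 arrays per group cannot give a p below 0.0079 before adjustment. The pairs also compare probe sets of unlike brightness. H2-DMa had means of 5.34 in hApoF and 5.39 in GFP livers, near the array medians, and H2-Ab1 had 8.58 and 8.07. Whether brightness bears on these differences was not tested.

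Within the hApoF group the 2 I-A chain genes ran side by side over the 6 arrays, with Pearson r = 0.91 (exact permutation p = 0.0111) and Spearman rho = 0.89 (exact p = 0.0333), and r = 0.81 without the 2 arrays farthest from the H2-Aa median. In the GFP group r was 0.73 (exact p = 0.0847), rho 0.83 (exact p = 0.0583) and r without the 2 farthest arrays 0.83. Close relations were not particular to this pair. In the GFP group r was 0.97 for H2-Eb1 with H2-DMb1 and 0.95 for H2-Aa with Ctss (exact permutation p = 0.0028 each). In the hApoF group it was 0.82 for H2-Ab1 with H2-Eb1 and for H2-Aa with Ctss. Of the 42 relations computed (21 pairs in 2 groups) 30 were positive and 0 passed adjustment. The 2 GFP pairs just named had the lowest adjusted p, 0.0583. The I-A pair had 0.156 in hApoF and 0.426 in GFP arrays. Over the 12 arrays, with each group centred on its own mean, the genes whose values ran most like the mean of the 7 members were Cd200r1 (r = 0.92), Gm6139 (0.92), Dhrs1 (0.92), Elk4 (0.91), Olfr978 (0.88), Errfi1 (0.87), Ecm2 (0.86) and Pla2r1 (0.86). They are the extremes of a search over all other genes and are given as a description, and 0 of the 8 passed the limma test between groups (2 had an unadjusted p under 0.05).

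The further class II chain genes did not pass. Of 5 measured, 0 changed by limma and 1 had an unadjusted p under 0.05, with a median change of 0.12. That gene was H2-DMb2, whose protein is an alternative beta chain of DM, at 4.15 in hApoF and 3.73 in GFP livers (log2 difference 0.42, SE 0.16, limma adjusted p = 0.128). H2-Oa, one chain of the DM inhibitor DO, had 4.87 and 4.70 (difference 0.17, limma adjusted p = 0.380). Of these 5 genes 4 lay below the array median on every array.

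Among 12 measured regulators of class II transcription 2 fell, 0 rose and 10 did not pass, with a median change of -0.11. Of their log2 differences 4 were above and 8 below 0, with 0 higher and 4 lower at an unadjusted p under 0.05. The list was not split into genes that activate and genes that repress, so its counts and median give no direction of class II control. Rfxank, a subunit of the RFX complex that binds the X box, had means of 7.17 in hApoF and 7.47 in GFP livers (log2 change -0.30, SE 0.08, limma adjusted p = 0.0314). Ezh2, a histone methyltransferase that is also abundant in dividing cells, had 6.80 and 7.65 (log2 change -0.85, SE 0.10, limma adjusted p = 9.73e-05) and did not overlap between groups. The other genes lower at an unadjusted p under 0.05 did not pass. They were Nfyc of the NF-Y complex (log2 difference -0.24, limma adjusted p = 0.0783) and Rfx5 of the RFX complex (-0.27, limma adjusted p = 0.1495). Nfyc did not overlap either, which made 2 of 12, against 4.98% of all genes in either direction. Rfxank failed to pass in 6 of 12 omissions, with a highest limma adjusted p of 0.0778 when GFP 2 was omitted. The regulators' lower count was 1 without any of hApoF 7, hApoF 10, hApoF 12, GFP 2, GFP 3 and GFP 5.

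**Figure D2:**
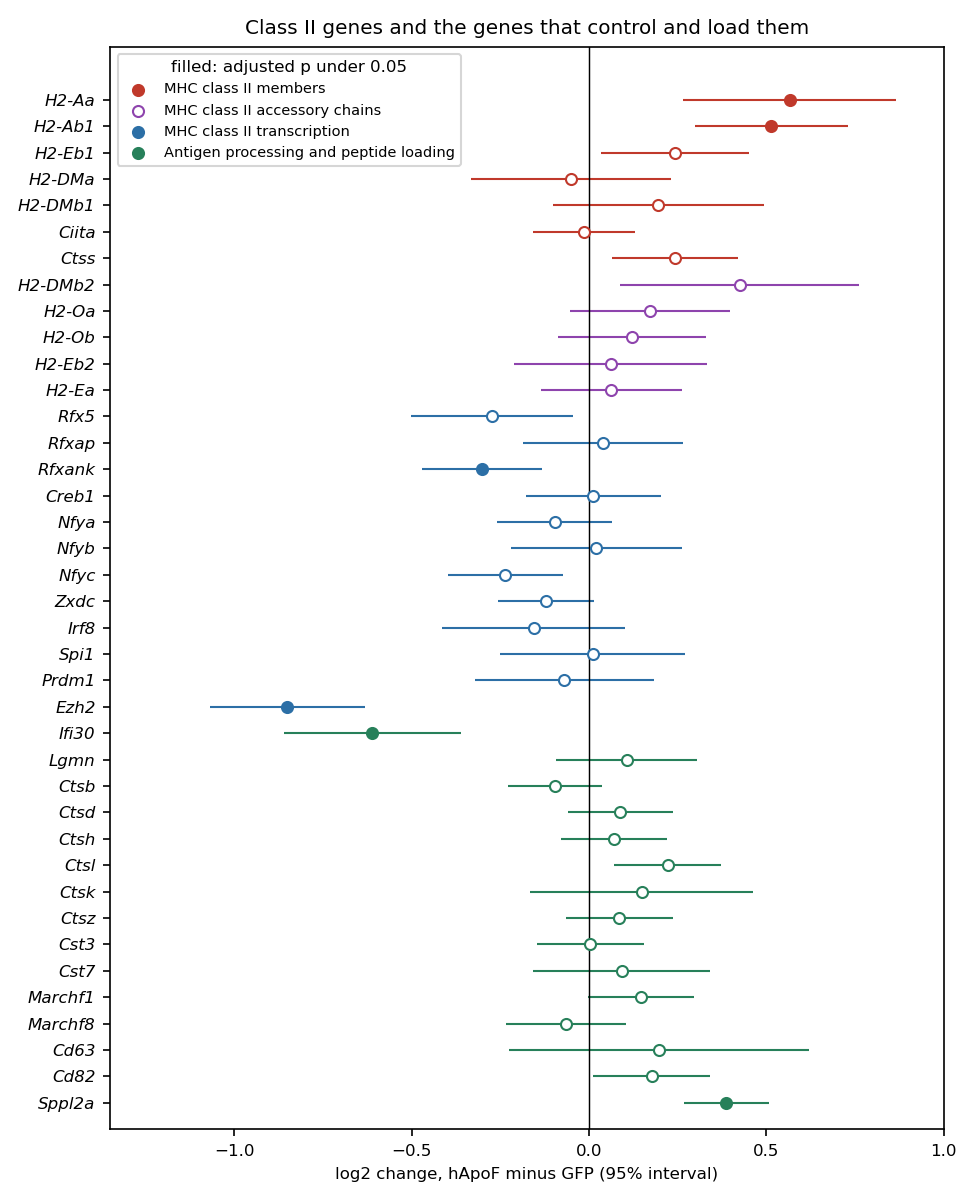
Log2 change, hApoF minus GFP, with its 95% interval from limma, for the 7 members and for the further class II chains, the regulators and the processing genes. Filled points passed at an adjusted p of 0.05: H2-Aa, H2-Ab1 and Sppl2a lie right of 0, and Rfxank, Ezh2 and Ifi30 lie left of it.

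Among 15 measured genes that prepare peptides or remove the invariant chain, 1 rose, 1 fell and 13 did not pass. Of their log2 differences 12 were above and 3 below 0, with 3 higher and 1 lower at an unadjusted p under 0.05, and the median was 0.09. Sppl2a, the intramembrane protease that clears the last fragment of the invariant chain, had 10.5 in hApoF and 10.1 in GFP livers, with no overlap (log2 change 0.39, SE 0.06, limma adjusted p = 0.000471). Ifi30, the interferon-induced thiol reductase of endosomes, had values from 7.19 to 7.72 in hApoF livers and from 7.77 to 8.48 in GFP livers. Every hApoF array was thus below every GFP array (log2 change -0.61, SE 0.12, limma adjusted p = 0.00469). Both calls held in all 12 omissions of 1 array. Leaving out hApoF 12 put 2 processing genes on the higher side.

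Class II genes are induced by interferon gamma through CIITA in many cell types. In a separate list of interferon gamma signalling and target genes, which does not hold Ifi30, Rfxank or the members, 0 of 21 measured genes changed by limma. At an unadjusted p under 0.05, 2 were higher and 6 lower, and the median change was -0.19. Tap1, the peptide transporter of the class I pathway, had 7.93 in hApoF and 8.43 in GFP livers with no overlap (log2 difference -0.49, SE 0.14, limma adjusted p = 0.0505), and the chemokine gene Cxcl10 had 6.07 and 6.81 (-0.74, SE 0.23, limma adjusted p = 0.0696). Without GFP 4, the count of lower genes in this list was 4, and without GFP 5 the count of higher genes was 1. Over all genes, 1988 changed in either direction without GFP 4, against 1533 with every array. Of the 10 costimulatory and checkpoint ligand genes 0 passed limma and 1 had an unadjusted p under 0.05, Cd274, which encodes PD-L1 (6.13 in hApoF and 6.55 in GFP livers, log2 difference -0.41, limma adjusted p = 0.131). The next lowest p in that list was that of Cd70, at 2.44 and 2.57 (unadjusted p = 0.114, limma adjusted p = 0.362).

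In whole liver a larger number of cells of a type and more RNA per cell cannot be told apart. Markers of cells that carry class II were therefore read on the same arrays. The mean log2 level of 13 Kupffer cell markers was 7.13 to 7.91 in hApoF livers and 6.66 to 7.54 in GFP livers, and 3 rose, 0 fell and 10 did not pass. Of their log2 differences 11 were above and 2 below 0, with 4 higher and 1 lower at an unadjusted p under 0.05. The median change was 0.20, while the mean level of the list differed by 0.41 between groups. The risers were the receptor genes Vsig4 (log2 change 1.38, limma adjusted p = 0.0375), Clec4f (1.26, limma adjusted p = 0.0100) and Cd163 (0.96, limma adjusted p = 0.0314). Clec4f passed in every omission of 1 array, whereas Cd163 was lost in 6 and Vsig4 in 7 of 12. The count was 1 without any of hApoF 7, hApoF 11, GFP 1, GFP 2 and GFP 3, and none of the 13 markers lay below the array median throughout. From lowest to highest, the hApoF arrays ran 10, 7, 8, 11, 9, 12 for the list. For H2-Aa they ran 7, 8, 10, 11, 12, 9, and for H2-Ab1 7, 10, 8, 12, 11, 9. The GFP arrays ran 2, 5, 1, 3, 6, 4 for the list. For H2-Aa they ran 2, 6, 5, 4, 3, 1, and for H2-Ab1 2, 6, 5, 1, 4, 3. The part of these cells in the rise of H2-Aa and H2-Ab1 was not tested.

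For 12 B cell markers the mean level was 4.78 to 5.05 in hApoF livers and 4.67 to 4.87 in GFP livers, with 0 changed by limma and 3 higher at an unadjusted p under 0.05. Cd79a, a chain of the B cell receptor, had 4.68 in hApoF and 4.41 in GFP livers (log2 difference 0.27, limma adjusted p = 0.0634), and the IgM receptor gene Fcmr had 5.02 and 4.68 (0.34, limma adjusted p = 0.0784). Of these markers 5 lay below the array median on every array, and 1 passed without GFP 4. In that fit 653 of all genes were higher, against 469 over all arrays. Dendritic cell markers had a mean level of 5.11 to 5.26 in hApoF and 5.08 to 5.23 in GFP livers. Of 12 measured 0 changed by limma and 1 had an unadjusted p under 0.05, Zbtb46, a transcription factor of conventional dendritic cells (5.49 and 5.23, log2 difference 0.25, limma adjusted p = 0.0709). Itgae followed at 4.65 and 4.45 (limma adjusted p = 0.238), 4 of the 12 lay below the array median throughout, and 1 passed without hApoF 10. Again their part in the rise was not tested.

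Sinusoidal endothelial markers were higher on the whole list by direction, with 12 of 12 log2 differences above 0, where 57.7% of all genes were. Of these 5 rose, 0 fell and 7 did not pass, and the mean level was 8.46 to 8.78 in hApoF and 8.14 to 8.58 in GFP livers. Examples are the receptor genes Kdr (log2 change 0.44, limma adjusted p = 0.00894), Tek (0.41, limma adjusted p = 0.0138) and Fcgr2b (0.37, limma adjusted p = 0.0145) and the phosphatase gene Ptprb (0.36, limma adjusted p = 0.0248). Their count was 3 without any of hApoF 9, GFP 2, GFP 5 and GFP 6, and 9 without GFP 4, and Ptprb was lost in 4 omissions. Stellate cell markers had 4 of 10 higher and 0 lower, with Rgs5 at 0.54, Hgf at 0.40, Pdgfrb at 0.28 and Dcn at 0.26 on the log2 scale. The stellate count was 2 without any array other than hApoF 10, hApoF 11, GFP 4 and GFP 5, and Dcn and Pdgfrb were each lost in 9 omissions. With GFP 4 and hApoF 12 both left out, 4 Kupffer cell, 7 endothelial, 4 stellate and 1 of the B cell markers were higher. More of all genes passed in such fits as well. In either direction 1988 changed without GFP 4 and 2049 without both arrays, against 1533 over all arrays.

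**Figure D3:**
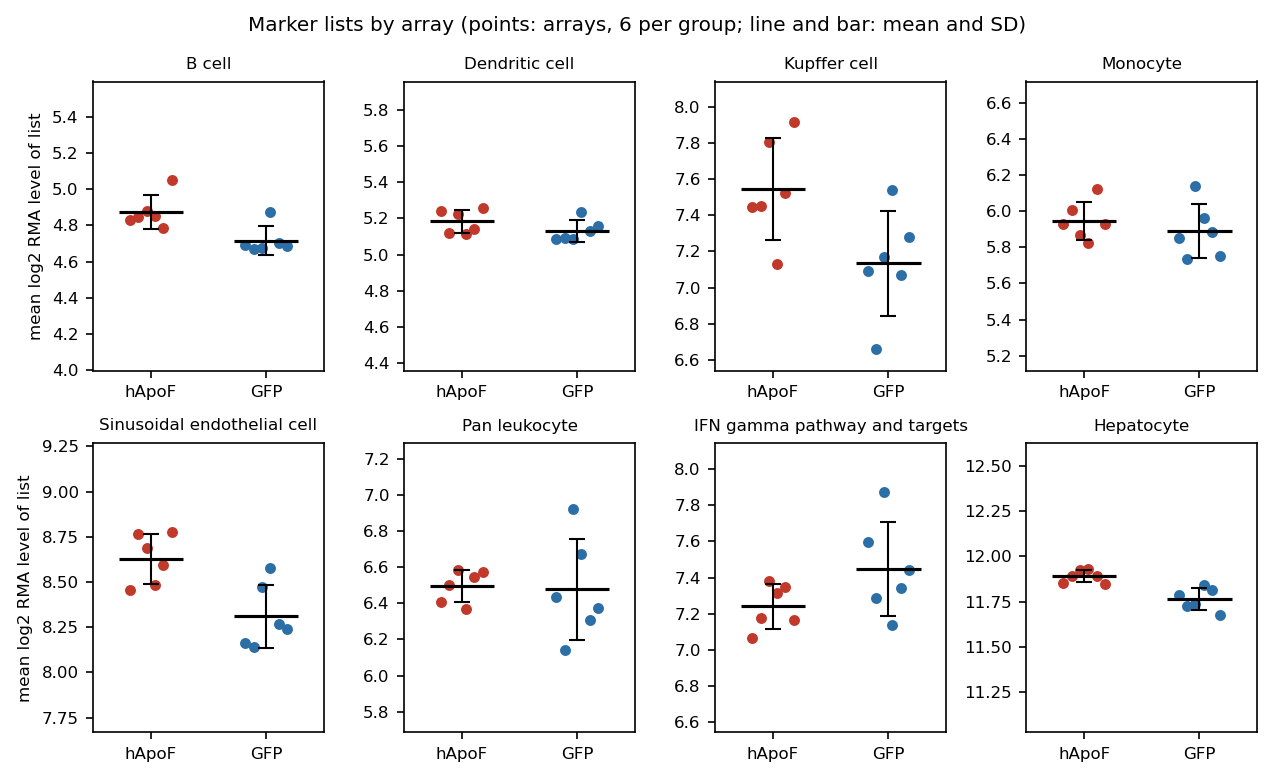
Mean log2 RMA level of 8 marker lists by array, hApoF left and GFP right in each panel. Points are arrays (6 per group), and the line and bar are the mean and SD. The Kupffer cell and sinusoidal endothelial lists have higher means in hApoF livers with overlapping groups, and the pan-leukocyte list spans 6.37 to 6.58 in hApoF and 6.14 to 6.92 in GFP livers.

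For genes shared by leukocytes in general no difference was detected. Of 12 pan-leukocyte genes 0 changed by limma and 0 had an unadjusted p under 0.05, the median change was -0.01, and the lowest p were those of Cd53 (7.47 in hApoF and 7.28 in GFP livers, limma adjusted p = 0.369) and Coro1a (5.94 and 5.81, limma adjusted p = 0.407). Of 16 T and NK cell markers 0 changed by limma, with 2 higher and 1 lower at an unadjusted p under 0.05, among them Cd4 (4.91 and 5.17, limma adjusted p = 0.0852) and Cd3d (4.57 and 4.41, limma adjusted p = 0.198). The 11 monocyte markers had a median change of 0.01, with 6 log2 differences above and 5 below 0, and 2 rose, the chemokine receptor gene Ccr2 (log2 change 0.46, limma adjusted p = 0.00633, no overlap) and Fn1 (0.24, limma adjusted p = 0.0462). Fn1 lay at 12.2 in hApoF and 11.9 in GFP livers, near the mean level of the hepatocyte markers given below, and Ccr2 at 5.54 and 5.08. Fn1 may therefore not read monocytes, and its cell source was not tested. Of 10 neutrophil markers 2 rose, Mmp8 (0.52, limma adjusted p = 0.0163) and S100a9 (0.40, limma adjusted p = 0.0487). The Fn1 call was lost in 10 and the S100a9 call in 9 of 12 omissions, so that each count was then 1. Hepatocyte markers were bright on every array, and 1 of 12 rose, Pck1 (log2 change 0.44, limma adjusted p = 0.00197). Their mean level was 11.849 to 11.931 in hApoF and 11.676 to 11.840 in GFP livers, so that the groups did not overlap. How often the mean of a list does not overlap was not computed for other sets of genes. Of the 12 log2 differences 10 were above 0, where 57.7% of all genes were, and 5 genes were higher and 0 lower at an unadjusted p under 0.05. Pck1, Fgb and Cps1, 3 of the 12, did not overlap between groups, against 1.49% of all genes with hApoF higher. The part of the hepatocyte marker difference in the rise of H2-Aa and H2-Ab1 was not tested.

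**Figure D4:**
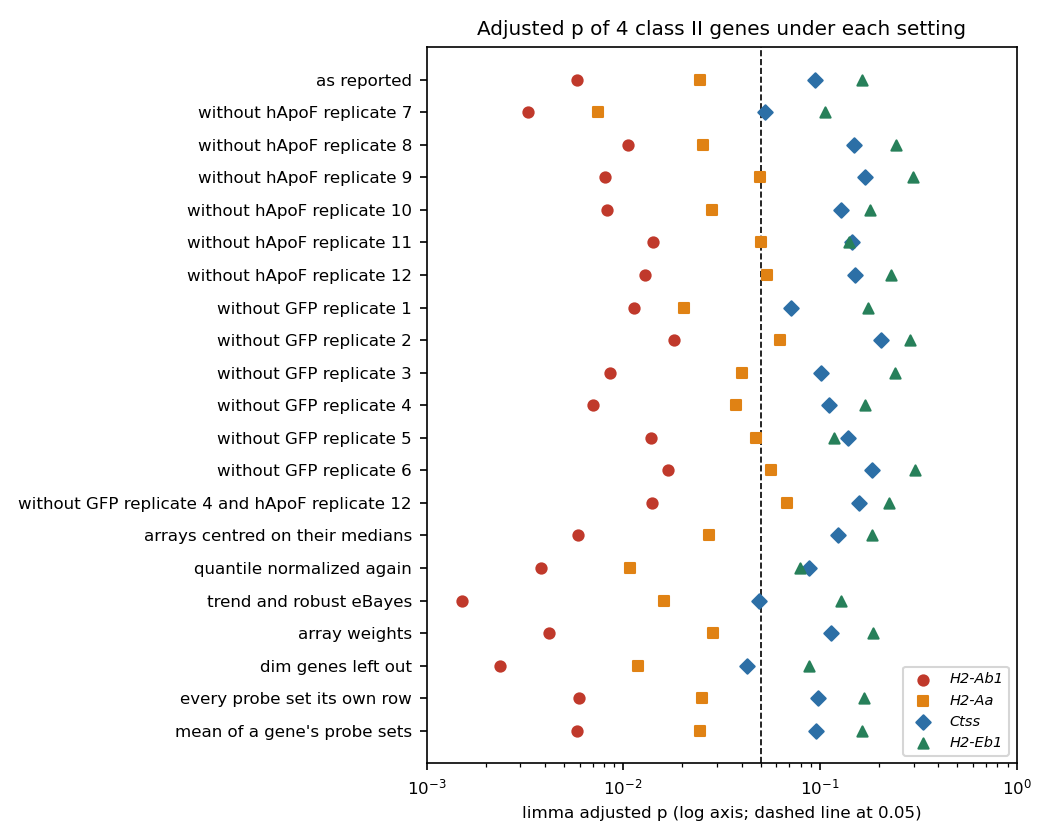
Limma adjusted p (log axis) of H2-Ab1, H2-Aa, Ctss and H2-Eb1 as reported, without each array and under the other settings, with the threshold of 0.05 dashed. H2-Ab1 stays left of the line in every setting shown, H2-Aa crosses it in 5, and Ctss reaches it with trend and robust settings and with dim genes left out.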

How the data were processed

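Per the submitters' processing notes, the arrays were processed with oligo and RMA (robust multi-array average: background correction, quantile normalization, median-polish summary), with no version given in the sources used here. The deposited values are log2 values for 35145 probe sets on 12 arrays, and they hold no detection calls, so background cannot be set per probe set. They were used as deposited. Array medians were 4.93 to 5.03. Of the probe sets, 23521 had 1 symbol, 1814 several and 9810 none in the platform annotation, and 22180 genes were each represented by their brightest single-symbol probe set. Names and gene positions are from GRCm38.p6 (23328 probe sets matched by gene number).

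hApoF was compared with GFP in limma 3.58.1 under R 4.3.3 (lmFit, eBayes, no covariates), with Python 3.11.15 for tables and exact permutation tests. Simulated on 22180 genes, the fit recovered 70% of genes changed by 0.5 and 98% of those changed by 1 on the log2 scale, with 10 false calls. The simulation drew independent normal noise for each gene and array and changed 50 genes at each size. It held no variation shared between genes, so these figures may not carry over to the real arrays. The number of arrays limits the precision.

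The members and the 15 gene lists (193 entries, 183 measured) were chosen with earlier results of these data known, so lists are given as counts and medians without a test. Named genes are all members, per list at most the 4 lowest p-values among genes that passed (the 2 lowest where none did), and the 8 genes most alike. Nfyc, Rfx5, Fgb and Cps1 are named besides, to spell out counts. Differences between members were planned for 28 pairs and, with Cd74 out, computed for 21. Alternatives were the omission of each array, of GFP 4 and hApoF 12 together, median centring, renewed quantile normalization, trend and robust settings, array weights, a filter on dim genes and other uses of the probe sets.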

Additional observations from a re-analysis of the deposited data

Results flagged for a closer look

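Dixon's test was applied within each group to the levels of the 7 members and to the mean levels of the lists, 46 times in all, and chance flags about 1 in 20. No member was singled out. The mean level of the B cell list was 5.05 in hApoF 12, where the next hApoF array had 4.88, and 4.87 in GFP 4, where the next GFP array had 4.70. The mean level of the costimulation and checkpoint ligand list was 5.25 in hApoF 10, below a next value of 5.48. The mean level of the stellate cell list was 7.17 in GFP 2, below a next value of 7.39.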

How the results depend on the processing

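H2-Ab1 kept its direction and its call in every alternative run, with log2 changes of 0.44 to 0.57 and limma adjusted p of 0.00327 to 0.0181 over the 12 omissions of 1 array. H2-Aa kept its direction, with changes of 0.48 to 0.66 over the omissions, and lost its call in 4 of them and without GFP 4 and hApoF 12 together (change 0.50, limma adjusted p = 0.0684). The number of members changed was 1 to 2 over the omissions and 1 without that pair of arrays. Ctss passed at the same change of 0.24 with trend and robust settings and with dim genes left out, where fewer genes were tested. The differences of H2-DMa (-0.13 to 0.03) and Ciita (-0.0382 to 0.0193) changed sign among omissions without passing any test, and Ciita was 0.01 without GFP 4 and hApoF 12, 0.0455 after renewed quantile normalization and 0.0031 with array weights. For H2-DMa the positive values were 0.0278 without hApoF 7, 0.0121 without hApoF 8 and 0.0055 without GFP 4, and for Ciita 0.0193 without hApoF 8 and 0.0125 without GFP 4. Over the omissions Cd200r1 ran from -0.1189 to 0.0433, turning to 0.0433 without hApoF 7 and 0.0022 without GFP 1. The number of all genes changed was 1015 to 1988 over the omissions (1019 without GFP 2, 1015 without GFP 3, 1021 without GFP 6, against 1533) and 2049 without GFP 4 and hApoF 12, and the number of list genes changed 12 to 32, and 32 with dim genes left out. The number of member pairs that differed was 3 to 8 over the omissions and 0 without GFP 4 and hApoF 12, where the test's smallest unadjusted p is 0.0079 and the count says little about stability. The motif layout was found in 2 members, and in 3 with GNAAC. The cause of these shifts was not tested. No paired analysis was possible because the groups share no replicate number. Cd74 has no value under any setting, and the pair test was not run with array weights, trend settings or the dim filter, which do not enter it.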
